A study of Mus musculus with 20 samples.

Results

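Histone genes were followed in liver RNA of Titan and control mice. They were taken by symbol (Hist1h to Hist4h, H2af, H3f3, H1f or H2bf at the start of the name) with at least 40 reads summed over the 20 mice, which gave 57 of the 55573 gene IDs in the files. Of these, 45 are replication-dependent genes, 10 are variant genes, 1 is a pseudogene (Hist1h2al) and 1 is an antisense RNA (H3f3aos), and a further 35 symbols of the same kind lay under the limit. The members just over the limit were Hist1h2ag with 40 reads and Hist1h3c with 42, and the genes just under it were Hist1h2ad with 34 and Hist1h2bf with 29. The study left histone genes out of its own RNA analysis, so they are described here from the counts alone.

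All mice were males on a standard breeding diet given ad libitum, 5 in each of 4 groups. Titan is a non-inbred mouse line (DU6) that has been selected for 45 years on body weight, and FZTDU is the unselected, non-inbred control line. The groups were Titan mice of 11 weeks, control mice of 11 weeks, Titan mice of 19–21 weeks and control mice of 19–21 weeks. A line difference here holds all that separates the 2 lines and cannot be split further. The sources used here do not say that mice of a group were littermates or that they were not, and p-values rest on the spread between these mice.

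Histones are the proteins around which nuclear DNA is wrapped: H2A, H2B, H3 and H4 form the core, and H1 binds the linker DNA between cores. Replication-dependent histone genes lie in clusters and are transcribed mainly during S phase, and their mRNA normally ends in a stem-loop in place of a poly(A) tail. Most variant genes (H1f0, H2afz, H3f3a and others) lie outside the large clusters, carry poly(A) tails and are transcribed throughout the cell cycle and in resting cells such as most adult hepatocytes. Because the libraries were depleted of rRNA and not selected for poly(A), both kinds of mRNA can be counted.

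The stem-loop was looked for in the annotated transcripts, on the sense strand, as GG, any 2 bases, CTTTT, any base, AG, any base and GCC. It stood in transcripts of 52 of 55450 genes (0.0938%), 44 of which have a symbol of the kinds above, and in 30 of the 45 replication-dependent members. The sites of members past the test threshold, and that of Hist1h1c, the replication-dependent gene with the most reads, are printed here with the matching letters in capitals to set the called genes beside an abundant one that did not pass.
Hist1h1c: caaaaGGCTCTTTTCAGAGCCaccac
Hist2h2ac: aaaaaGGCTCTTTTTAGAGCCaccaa
Hist4h4: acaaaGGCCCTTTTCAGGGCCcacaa
Hist2h4: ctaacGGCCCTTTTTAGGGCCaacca
Hist1h4i: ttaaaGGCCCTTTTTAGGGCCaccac
H2afx: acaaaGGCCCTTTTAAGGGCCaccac
The variant gene H2afx also holds these letters. The annotated transcripts of Hist1h1b, Hist1h4j and Hist1h1a did not hold them, which says only that the letters are not in these gene models. In 18 replication-dependent genes the annotated transcript ran on for at least 100 bases past the stem-loop, and these genes held 63.7% of the reads on replication-dependent members.

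Promoter windows of RefSeq (GRCm38.p6, 300 bases, of which 250 lie before the start) matched 49 members, 40 of them replication-dependent. The letters CCAAT, on either strand, stood in 33 of the 40 (82.5%) against 37.4% of all windows, but in 3 of 10 windows of H4 genes. TATAAA stood in 57.5% against 13.6% of all windows. AAACACA, the H1 box, stood in 4 of 5 H1 windows against 7.18% of all, and ATTTGCAT, the octamer, in 7 of 10 H2B windows against 1.74%. GGTCC stood in 9 of 10 H4 windows against 45.5% of all. These are matches of letters and were not tested as binding sites. The 250 bases before the annotated start of Hist1h1b and Hist1h4j, the 2 tested members with the largest log2 fold change between the lines, and of Hist1h1c, the most counted replication-dependent H1 gene, are printed with every match to these 5 motifs, on either strand, in capitals.
Hist1h1b: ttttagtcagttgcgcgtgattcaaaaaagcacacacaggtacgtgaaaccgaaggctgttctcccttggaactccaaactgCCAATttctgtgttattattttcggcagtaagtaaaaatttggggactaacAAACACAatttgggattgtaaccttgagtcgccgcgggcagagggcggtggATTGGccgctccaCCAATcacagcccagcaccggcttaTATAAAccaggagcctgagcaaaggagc
Hist1h4j: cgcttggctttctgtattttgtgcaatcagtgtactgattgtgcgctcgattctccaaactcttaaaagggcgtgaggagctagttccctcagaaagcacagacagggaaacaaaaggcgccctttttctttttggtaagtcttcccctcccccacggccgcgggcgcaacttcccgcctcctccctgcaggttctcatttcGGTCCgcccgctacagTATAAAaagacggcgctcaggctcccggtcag
Hist1h1c: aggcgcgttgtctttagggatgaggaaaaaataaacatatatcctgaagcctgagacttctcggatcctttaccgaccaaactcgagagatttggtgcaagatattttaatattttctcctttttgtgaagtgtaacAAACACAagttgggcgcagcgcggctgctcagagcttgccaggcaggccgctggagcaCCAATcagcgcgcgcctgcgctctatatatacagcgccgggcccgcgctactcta
They lie at chr13:21780626-21780875 on the minus strand, chr13:21734814-21735063 on the plus strand and chr13:23738558-23738807 on the plus strand. Hist1h1b and Hist1h1c share the H1 box, which begins 117 and 113 bases before the start, and a CCAAT box, which begins 53 and 55 bases before it. Hist1h4j holds neither, and has GGTCC 48 and TATAAA 32 bases before its start.

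Reads on genes numbered 6794935 to 23295028 per mouse, with a median of 12547300, and the members held 0.0431% to 0.0612% of them. The count files use reads that map to a single place, so a member whose sequence recurs in another gene loses reads. The share of its 50-base windows found in transcripts of genes elsewhere had a median of 39.5% over the replication-dependent members (highest 87.6%) and of 4.17% over the variants (highest 35.4%). Counts are scaled to CPM, the count per 1000000 reads on genes, with TMM factors, and levels of different genes are compared only as CPM per kb of exon. Of the 57 members, 40 passed the filter on low counts and were tested, among them 30 replication-dependent and 8 variant genes. The other 17 had at most 134 reads in all and are given by their reads.

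Per kb of exon, the level was highest for the variant H1f0, the linker histone of resting and differentiated cells, at 43.3 ± 6.28 CPM per kb (SD, n = 20). It was followed by the H2B gene Hist1h2bc at 35.2 ± 2.82, the H4 gene Hist1h4h at 32.7 ± 4.81 and the H1 gene Hist1h1c at 27.0 ± 4.69 CPM per kb. Hist1h2bc and Hist1h4h differed by less than the SD of either, while H1f0 stood above Hist1h2bc, and Hist1h4h above Hist1h1c, by more than both SDs. These levels are not corrected for reads lost to sequence that recurs in other genes. The share of such windows was 0% for H1f0, 30.6% for Hist1h2bc, 45.8% for Hist1h4h and 8.54% for Hist1h1c. The order given is thus that of counted reads, and the order of the true levels was not tested. H3f3b, which encodes the replacement histone H3.3, was at 23.7 ± 2.21 CPM per kb, and H3f3a, which encodes the same protein, at 1.90 ± 0.360. The 6 replication-dependent genes with the most reads (Hist1h1c, Hist1h2bc, Hist1h1e, Hist1h4c, Hist1h4d and Hist1h4h) held 73.3% of the 58375 reads on that kind. At the low end, H2afy2, which encodes a second macroH2A, was at 0.135 ± 0.0710 CPM per kb.

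**Figure D1:**
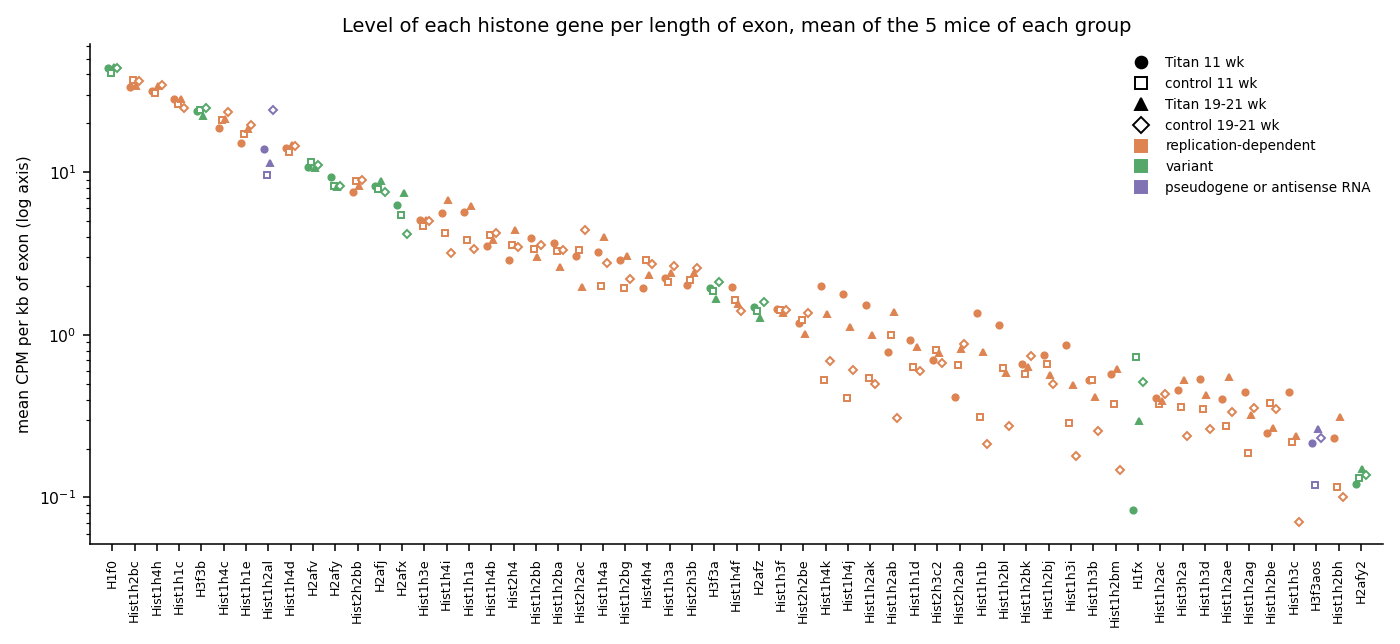
Mean CPM per kb of exon (log axis) of each of the 57 histone genes, one point per group of 5 mice, ordered by the mean over all 20 mice. The points of a gene lie close together from H1f0 (43.3) down to about 5 CPM per kb, the pseudogene Hist1h2al apart, and spread out below, where H1fx, Hist1h1b and Hist1h4j are among the genes with wide gaps between the lines.

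Summed over the 45 replication-dependent genes, the level did not separate the groups. It was 221 ± 8.42 CPM in Titan mice and 221 ± 13.9 in control mice of 11 weeks, and 234 ± 22.3 and 227 ± 15.4 CPM at 19–21 weeks (SD, n = 5 each), so that the line difference at either age was smaller than the SD of a group. The same held for the sum of the 10 variants at 19–21 weeks, with 266 ± 24.3 against 270 ± 14.4 CPM. At 11 weeks the variant sum was 276 ± 8.76 CPM in Titan mice and 263 ± 10.6 in controls, with overlapping ranges.

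Among the classes, the replication-dependent H2B sum was 52.6 ± 4.04 CPM in Titan and 56.7 ± 2.12 in control mice at 11 weeks, and 52.5 ± 2.78 against 55.9 ± 2.51 at 19–21 weeks. The ranges overlapped at both ages. Without Hist1h2bc the log2 ratio of the means went from -0.11 to 0.04 at 11 weeks and stayed at -0.09 at 19–21 weeks. The H2A sum, the lowest of the 5 classes, was 5.25 ± 0.642 CPM in Titan and 4.70 ± 0.681 in control mice at 11 weeks. In the older mice it was 5.10 ± 0.755 and 5.03 ± 1.21, and without its most counted gene, Hist2h2ac, the log2 ratio at that age went from 0.02 to 0.58. H1, H3 and H4 sums each differed between lines by less than 1 SD of a group. These sums are descriptions, with no test.

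**Figure D2:**
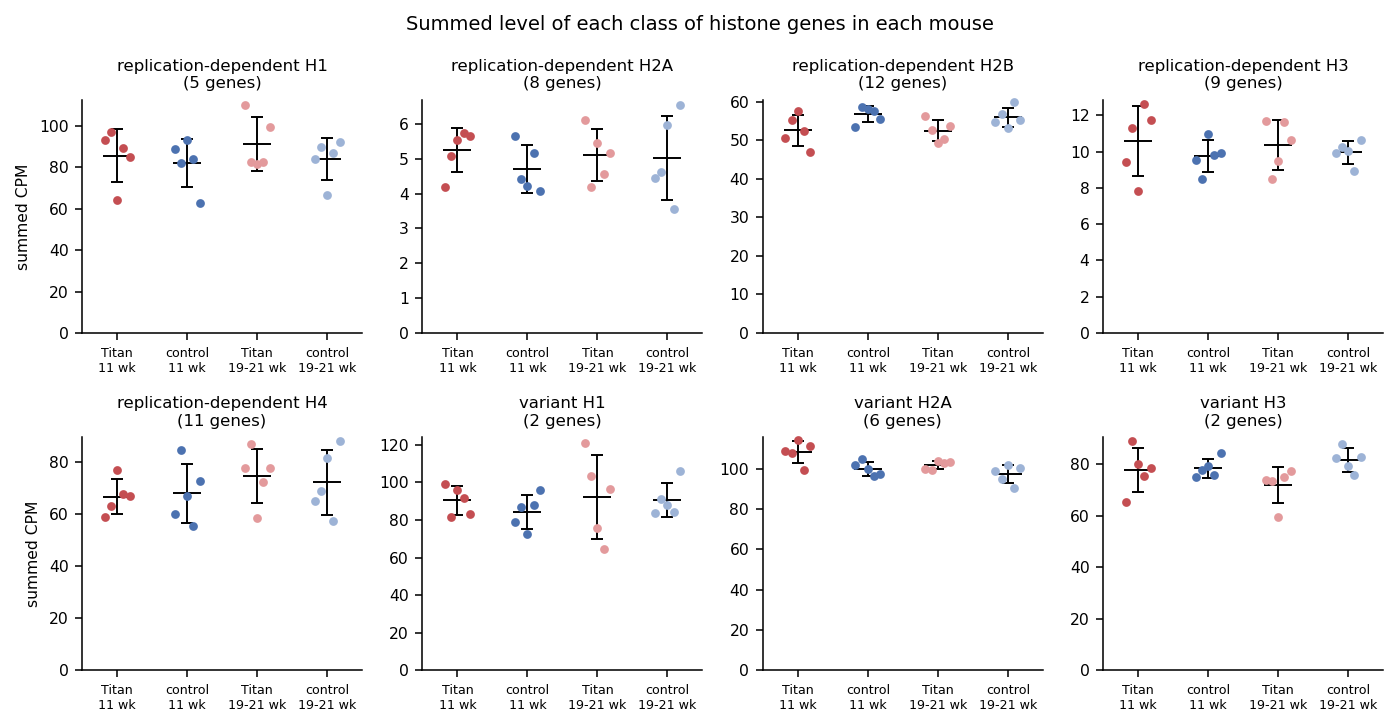
Summed CPM of the histone genes of each class in each mouse (points), with the group mean and SD (n = 5), for 5 replication-dependent and 3 variant classes, all axes from 0. The 4 groups overlap in every class, and the means of the replication-dependent H2B sum (52.6 against 56.7 and 52.5 against 55.9 CPM) and of the variant H3 sum (77.6 against 78.3 and 71.8 against 81.5 CPM) are lower in Titan mice at both ages.

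At 11 weeks, 4 of the 40 tested members passed the threshold of 0.05 on adjusted p (edgeR quasi-likelihood test, adjusted over all 13823 genes tested), 3 higher in Titan mice and 1 lower. That is 10% of the members, beside 14.9% of all genes tested (7.21% higher and 7.69% lower). The higher ones were Hist1h1b (linker histone H1.5), Hist1h4j (a copy of H4) and H2afy (macroH2A1, a large variant found on silent chromatin), and the lower one was Hist4h4, an H4 gene on chromosome 6, away from the large clusters. The median log2 fold change was 0.09 over the members and -0.02 over all genes, and 26 of 40 members had a value above 0, beside 47.4% of all genes. The ranges of the 2 lines did not overlap for 5 members (12.5%, beside 12% of all genes): the 4 that passed and Hist1h2be.

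Hist1h1b (chr13:21779883-21780625, minus strand) was at 0.964, 1.09, 0.802, 1.09 and 1.13 CPM in the 11-week-old Titan mice and at 0.0843, 0.167, 0.198, 0.366 and 0.345 CPM in the controls of that age. All Titan values lay above all control values, from 11 to 27 reads against 1 to 6. The log2 fold change was 2.05 ± 0.32 (SE, edgeR adjusted p = 0.000158). In the older mice the levels were 0.407, 0.781, 0.364, 0.843 and 0.510 CPM in Titan and 0.0857, 0.271, 0.216, 0.132 and 0.0838 CPM in control mice, again with no overlap. There the log2 fold change was 1.82 ± 0.40 (edgeR adjusted p = 0.00648). No 50-base window of Hist1h1b was found in another gene. Hist1h1b was the single member called at both ages. The call held in every alternative fit that tested it (7 at 11 weeks and 6 at 19–21 weeks) and without any one of the 20 mice. Outside the 11-week-old Titan mice no mouse had more than 10 of its reads. In the fit of only the 19–21-week-old groups it fell under the filter on low counts. Its place in the main fit thus rests on the 11-week-old Titan mice, where it was highest. The age effects of the 2 lines differed by -0.24 ± 0.59 on the log2 scale (edgeR adjusted p = 0.967).

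Hist1h4j (chr13:21735064-21735837, plus strand) was at 1.31, 1.48, 0.948, 1.09 and 2.06 CPM in 11-week-old Titan mice and at 0.337, 0.416, 0.0990, 0.244 and 0.483 CPM in controls. The lowest Titan value was above the highest control value, with 11 to 49 against 2 to 7 reads, and 24.6% of its windows recur elsewhere. Its log2 fold change was 2.19 ± 0.35 (edgeR adjusted p = 0.000235), which also held in every alternative fit that tested it and without any one mouse. No 11-week-old control had more than 7 of its reads. It passed the filter on low counts mainly through Titan mice, where it was highest, so these fits are no separate support. In mice of 19–21 weeks it was at 0.951, 0.879, 0.486, 1.18 and 0.849 CPM in Titan and 0.429, 0.271, 0.809, 0.527 and 0.335 CPM in control mice. These ranges overlapped, with a log2 fold change of 0.82 ± 0.37 (edgeR adjusted p = 0.176). The difference between the 2 age effects was -1.37 ± 0.52 (edgeR adjusted p = 0.419), so the line difference was not shown to depend on age.

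H2afy (chr13:56073619-56136361, minus strand) was at 64.8, 63.2, 60.8, 62.3 and 69.3 CPM in 11-week-old Titan mice and 60.5, 54.7, 56.2, 56.5 and 54.0 CPM in controls. The ranges just failed to touch, and the difference was small, 0.19 ± 0.06 on the log2 scale (edgeR adjusted p = 0.0449). In 19–21-week-old mice the values were 54.3, 55, 59.8, 58.5 and 49.6 CPM in Titan and 61.3, 54.9, 55.6, 54.8 and 55.7 CPM in controls, with a log2 fold change of -0.03 ± 0.06 (edgeR adjusted p = 0.835). The call at 11 weeks was lost in 2 of 8 alternative fits and without 12 of the 20 mice, taken one at a time: 11-week-old Titan mice 1, 2, 4 and 5 and controls 2, 3, 4 and 5, and 19–21-week-old Titan mouse 2 and controls 3, 4 and 5. In those 12 fits the log2 fold change was 0.16 to 0.20 and the edgeR adjusted p 0.0503 to 0.129.

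Hist4h4 (chr6:136801553-136804415, minus strand) was at 5.23, 5.08, 4.89, 6.45 and 6.30 CPM in 11-week-old Titan mice and at 6.83, 11.2, 7.33, 8.72 and 7.31 CPM in controls. Every Titan value was below every control value, and the log2 fold change was -0.56 ± 0.19 (edgeR adjusted p = 0.0482). It lost the call in 6 of 8 alternative fits (edgeR adjusted p 0.0503 to 0.0725) and without 12 mice in turn: 11-week-old Titan mice 1, 2, 3 and 5 and controls 2, 3, 4 and 5, and 19–21-week-old Titan mice 3 and 4 and controls 2 and 3 (log2 fold change -0.61 to -0.43, edgeR adjusted p 0.0521 to 0.144). At 19–21 weeks the log2 fold change was -0.23 ± 0.19 (edgeR adjusted p = 0.494). Hist1h2be, an H2B gene whose annotated exons overlap Hist1h1e on the same strand, was at 0.882 to 1.33 CPM in Titan and 1.40 to 2.03 CPM in control mice at 11 weeks, with a log2 fold change of -0.62 ± 0.21 (edgeR adjusted p = 0.0533).

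**Figure D3:**
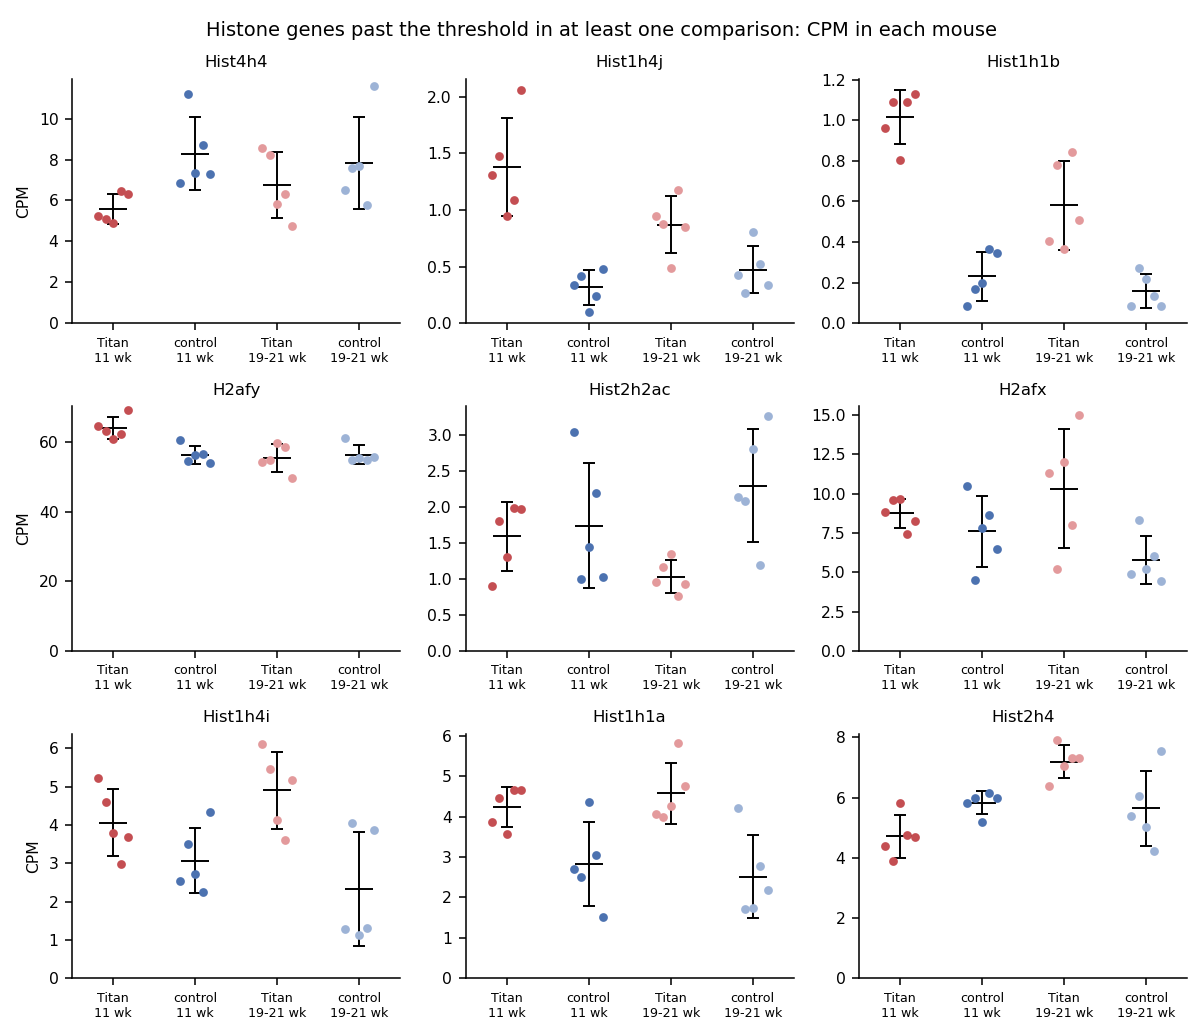
CPM of the 9 histone genes past the threshold in at least 1 comparison, in each mouse (points), with the group mean and SD (n = 5), axes from 0. Hist1h1b is higher in every Titan mouse than in any control of its age at both ages, while the shift of H2afy (64.1 against 56.4 CPM at 11 weeks) is small beside its level.

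Of the replication-dependent H1 genes, which encode linker subtypes, 4 of 5 had a positive log2 fold change at 11 weeks, and Hist1h1b alone passed. Hist1h1c, the gene of subtype H1.2, was at 36.1 to 53.5 CPM in Titan and 36.3 to 46.6 in control mice, with a log2 fold change of 0.12 ± 0.15 (edgeR adjusted p = 0.667). Hist1h1e, the gene of H1.4, gave -0.20 ± 0.16 (edgeR adjusted p = 0.467). Per kb of exon, Hist1h1b was at 1.37 ± 0.183 CPM per kb in the 11-week-old Titan mice, beside 28.5 ± 5.25 for Hist1h1c and 15.1 ± 2.99 for Hist1h1e (SD, n = 5).

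The abundant H4, H2B and H3 genes did not pass in the same comparison. Hist1h4c, Hist1h4d and Hist1h4h, copies of the H4 gene with the same protein, had log2 fold changes of -0.16 ± 0.22, 0.08 ± 0.15 and 0.06 ± 0.13 (edgeR adjusted p = 0.686, 0.806 and 0.820). For the H2B genes Hist1h2bc and Hist2h2bb they were -0.16 ± 0.07 and -0.21 ± 0.22 (edgeR adjusted p = 0.146 and 0.604). The unadjusted edgeR p of Hist1h2bc was 0.0359. The H3 genes Hist1h3e and Hist1h3f, the most counted of their class, gave 0.10 ± 0.16 and 0.01 ± 0.20 (edgeR adjusted p = 0.753 and 0.982), and the H2A gene Hist1h2ac 0.11 ± 0.24 (edgeR adjusted p = 0.872). A p that misses the threshold does not show that these genes are equal between the lines.

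Among variants, H2afy was the only 1 of 8 tested genes past the threshold at 11 weeks. H1f0 had a log2 fold change of 0.11 ± 0.13 and H3f3b of -0.02 ± 0.09 (edgeR adjusted p = 0.630 and 0.907). H2afz and H2afv, the 2 genes of H2A.Z, gave 0.08 ± 0.20 and -0.10 ± 0.13, H2afj 0.07 ± 0.14, H2afx 0.21 ± 0.24 and H3f3a 0.08 ± 0.17 (edgeR adjusted p from 0.629 to 0.842). Among the 8 tested variants, H2afy thus had the smallest standard error and was the only one whose ranges did not overlap.

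At 19–21 weeks, 5 of the 40 tested members passed (12.5%, beside 9.13% of all genes tested, 4.25% higher and 4.88% lower), 4 higher in Titan mice and 1 lower. Beside Hist1h1b these were the H4 gene Hist1h4i, the H1 gene Hist1h1a (linker histone H1.1), the variant H2afx, whose protein is phosphorylated around DNA breaks, and, lower, the H2A gene Hist2h2ac. The ranges of the lines did not overlap for Hist1h1b alone (2.5% of the members, beside 7.61% of all genes). The median log2 fold change over the members was -0.04, beside 0.01 over all genes, and 18 of 40 were above 0 (51.6% of all genes).

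Hist1h4i (chr13:22040636-22041362, minus strand) was at 6.11, 5.47, 4.13, 3.62 and 5.18 CPM in Titan and 1.29, 4.06, 1.13, 1.32 and 3.86 CPM in control mice of 19–21 weeks. Controls 2 and 5 stood near the Titan mice and the other 3 well below them. The log2 fold change was 1.07 ± 0.32 (edgeR adjusted p = 0.0384). It was lost in the fit of only the 2 groups compared (edgeR adjusted p = 0.108) and without 19–21-week-old Titan mouse 1, 2, 3 or 5 or control 1, 3 or 4 (log2 fold change 0.86 to 1.12, edgeR adjusted p 0.0518 to 0.0968). At 11 weeks the value was 0.41 ± 0.30 (edgeR adjusted p = 0.410).

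Hist1h1a (chr13:23763666-23764406, plus strand) was at 4.07, 4.0, 4.25, 5.82 and 4.76 CPM in Titan and 4.20, 1.71, 1.73, 2.77 and 2.18 CPM in control mice of 19–21 weeks. Control 1 reached into the Titan range and the other controls lay under it. Its log2 fold change was 0.89 ± 0.25 (edgeR adjusted p = 0.0322), lost in 2 of 8 alternative fits (edgeR adjusted p 0.0597 and 0.0608) and without Titan mouse 4 or 5 or control 2, 3 or 5 of that age (log2 fold change 0.76 to 0.87, edgeR adjusted p 0.0577 to 0.0912). The 11-week difference was 0.57 ± 0.24 (edgeR adjusted p = 0.126). Like Hist1h1b, Hist1h1a had no window shared with another gene.

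H2afx (chr9:44334694-44336077, plus strand) was at 11.3, 5.18, 12.0, 8.01 and 15.0 CPM in Titan and 4.89, 8.30, 5.23, 6.06 and 4.44 CPM in control mice of 19–21 weeks, so that 3 Titan mice stood above all controls and 2 within their range. The log2 fold change was 0.84 ± 0.25 (edgeR adjusted p = 0.0368). It was lost in 3 of 8 alternative fits (edgeR adjusted p 0.0573 to 0.0872) and without Titan mouse 1, 3 or 5 or control 1, 3, 4 or 5 of that age (log2 fold change 0.65 to 0.85, edgeR adjusted p 0.0547 to 0.112).

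Hist2h2ac (chr3:96220361-96220880, minus strand) was at 0.951, 1.17, 1.34, 0.759 and 0.934 CPM in Titan and 2.14, 2.08, 2.80, 1.19 and 3.27 CPM in control mice of 19–21 weeks. Control 4 lay among the Titan mice. The log2 fold change was -1.19 ± 0.33 (edgeR adjusted p = 0.0283), beside -0.12 ± 0.31 at 11 weeks (edgeR adjusted p = 0.854), and the difference of the age effects was -1.07 ± 0.46 (edgeR adjusted p = 0.491). The call was lost in 3 of 7 alternative fits, among them that on reads of both strands (edgeR adjusted p 0.0627 to 0.267), and without Titan mouse 1, 4 or 5 or control 3 or 5 of that age (log2 fold change -1.17 to -1.04, edgeR adjusted p 0.0531 to 0.0779). Of its 50-base windows 38.6% recur in other genes.

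The remaining variants did not pass at 19–21 weeks: H1f0 had a log2 fold change of 0.03 ± 0.13, H2afj of 0.21 ± 0.14, H2afv of -0.06 ± 0.14, H2afz of -0.33 ± 0.22, H3f3a of -0.32 ± 0.17 and H3f3b of -0.17 ± 0.09 (edgeR adjusted p from 0.240 to 0.931). The abundant replication-dependent genes again did not pass, with 0.19 ± 0.15 for Hist1h1c, -0.10 ± 0.16 for Hist1h1e, -0.09 ± 0.07 for Hist1h2bc, -0.14 ± 0.22 for Hist1h4c and 0.01 ± 0.16 for Hist1h4d. The same was seen for Hist2h2bb, Hist1h3e, Hist1h3f and Hist1h2ac, at -0.14 ± 0.23, 0.02 ± 0.17, -0.08 ± 0.21 and -0.13 ± 0.25.

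**Figure D4:**
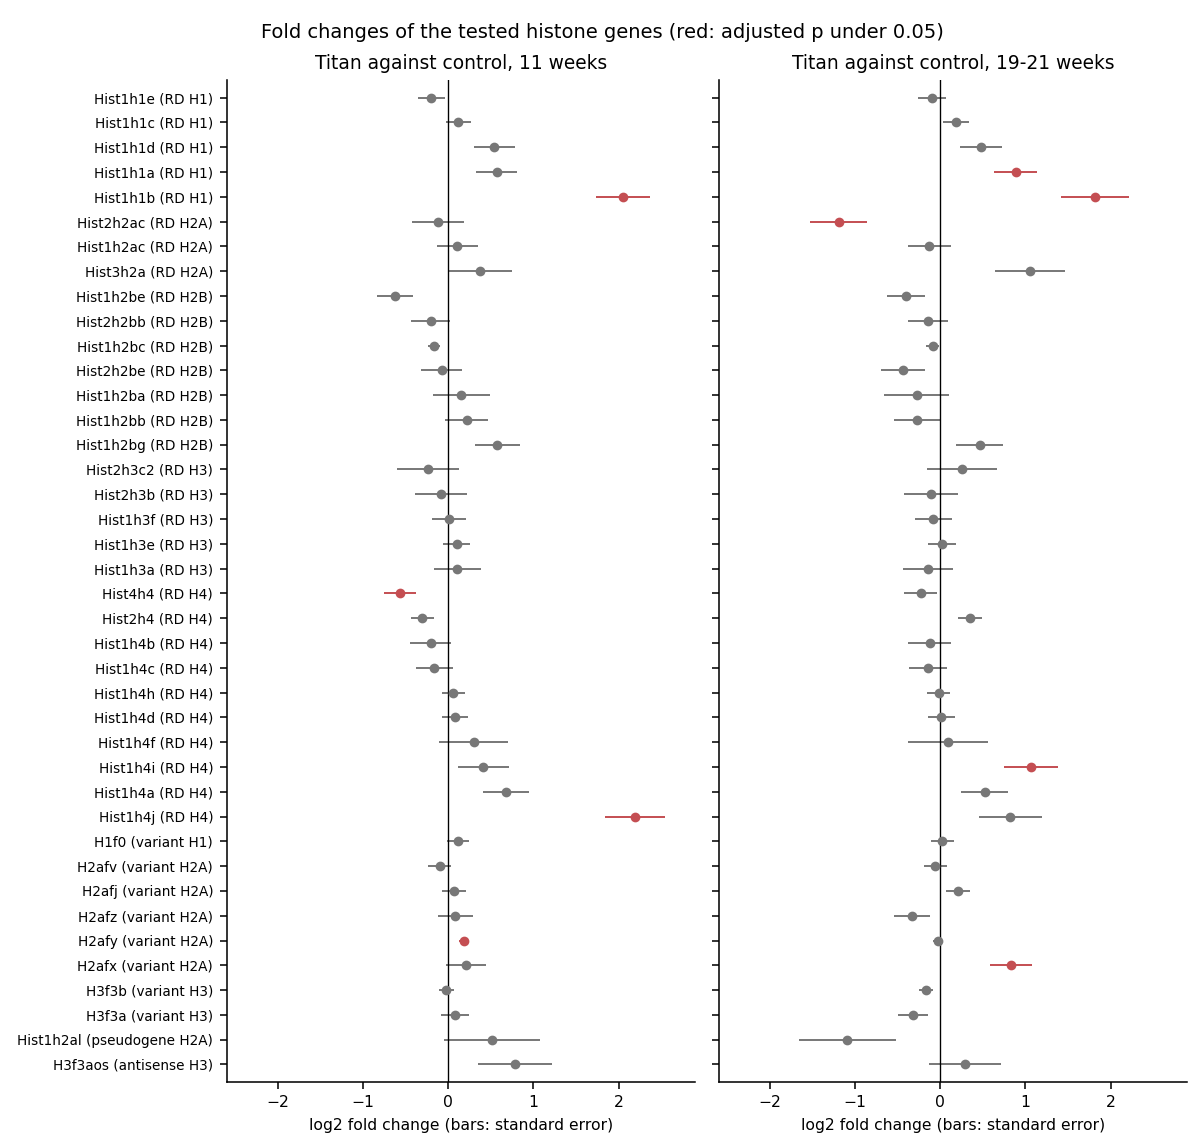
Log2 fold change of Titan against control with its standard error for the 40 tested histone genes at 11 weeks (left) and 19–21 weeks (right), grouped by kind (RD, replication-dependent) and histone, with genes past the adjusted p of 0.05 in red. Most points lie within 0.5 of 0, Hist1h1b lies near 2 at both ages (2.05 and 1.82) and Hist1h4j does so at 11 weeks (2.19).

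Hist1h1b and Hist1h4j lie in one stretch of chromosome 13, from 21715763 to 21783370, that holds 7 members (genes less than 150 kb apart): Hist1h2bl, Hist1h2bm, Hist1h4j, Hist1h4k, Hist1h2ak, Hist1h1b and Hist1h3i. This grouping was looked at after the values of the 2 genes had been seen. At 11 weeks each of the 7 had more reads over the 5 Titan than over the 5 control mice, for the 5 untested genes 35 against 17 (Hist1h2bl), 22 against 14 (Hist1h2bm), 46 against 12 (Hist1h4k), 43 against 15 (Hist1h2ak) and 25 against 9 (Hist1h3i). For Hist1h4k, a further H4 copy, every Titan mouse was above every control, with a ratio of rates of 3.84 (exact 95% interval 2.0 to 7.96, which covers counting error only). For Hist1h2bm the interval of the ratio was 0.769 to 3.32. Members were chosen by reads summed over all mice. The 11-week-old Titan mice gave 25 of the 48 reads of Hist1h3i and 35 of the 70 of Hist1h2bl. That each of the 7 was higher at 11 weeks is thus partly set by this choice. Under the read limit in the same stretch lay Hist1h2ai, Hist1h3h, Hist1h2bn and the pseudogene Hist1h2aj. They had 15, 9, 4 and 0 reads and were not compared between the lines.

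Summed over the 7 genes, the level at 11 weeks was 4.71 ± 0.894 CPM in Titan and 1.48 ± 0.448 in control mice (SD, n = 5), with no overlap, and without Hist1h1b and Hist1h4j it was 2.32 ± 0.579 against 0.931 ± 0.358 CPM, again with no overlap. For the older mice the sum of the 7 was 3.01 ± 0.677 against 1.30 ± 0.533 CPM, with overlapping ranges, and that of the 5 was 1.56 ± 0.459 against 0.669 ± 0.392 CPM, without overlap. By contrast, the 24 members between 23.5 and 23.8 Mb of the same chromosome, which include Hist1h1c and Hist1h2bc, summed to 189 ± 8.81 CPM in Titan and 189 ± 13.9 in control mice at 11 weeks. The sums of the stretch cover only genes past the read limit, so the choice described above bears on them too. The untested genes of the stretch share 43.8% to 87.6% of their windows with other genes. The effect of this on their counts was not tested.

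Of the 8 tested genes without a histone symbol within 1 Mb of the stretch, none was higher in Titan mice and 1 was lower (edgeR adjusted p under 0.05), both at 11 and at 19–21 weeks. The lower one was AK157302 at both ages, with log2 fold changes of -4.16 ± 0.96 and -5.80 ± 1.11 (edgeR adjusted p = 0.00500 and 0.00227). The median log2 fold change of the 8 genes was -0.19 at 11 weeks and -0.08 at 19–21 weeks. All 8 lie on one side of the stretch, between 21179445 and 21531120, and none was tested on the other side. On that side lie 4 further members, between 22035870 and 22043676, which include Hist1h4i. Their sum was 4.94 ± 0.649 CPM in Titan and 3.74 ± 1.03 in control mice at 11 weeks (SD, n = 5). At 19–21 weeks it was 5.62 ± 1.08 against 3.09 ± 1.72 CPM, and the ranges overlapped at both ages.

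**Figure D5:**
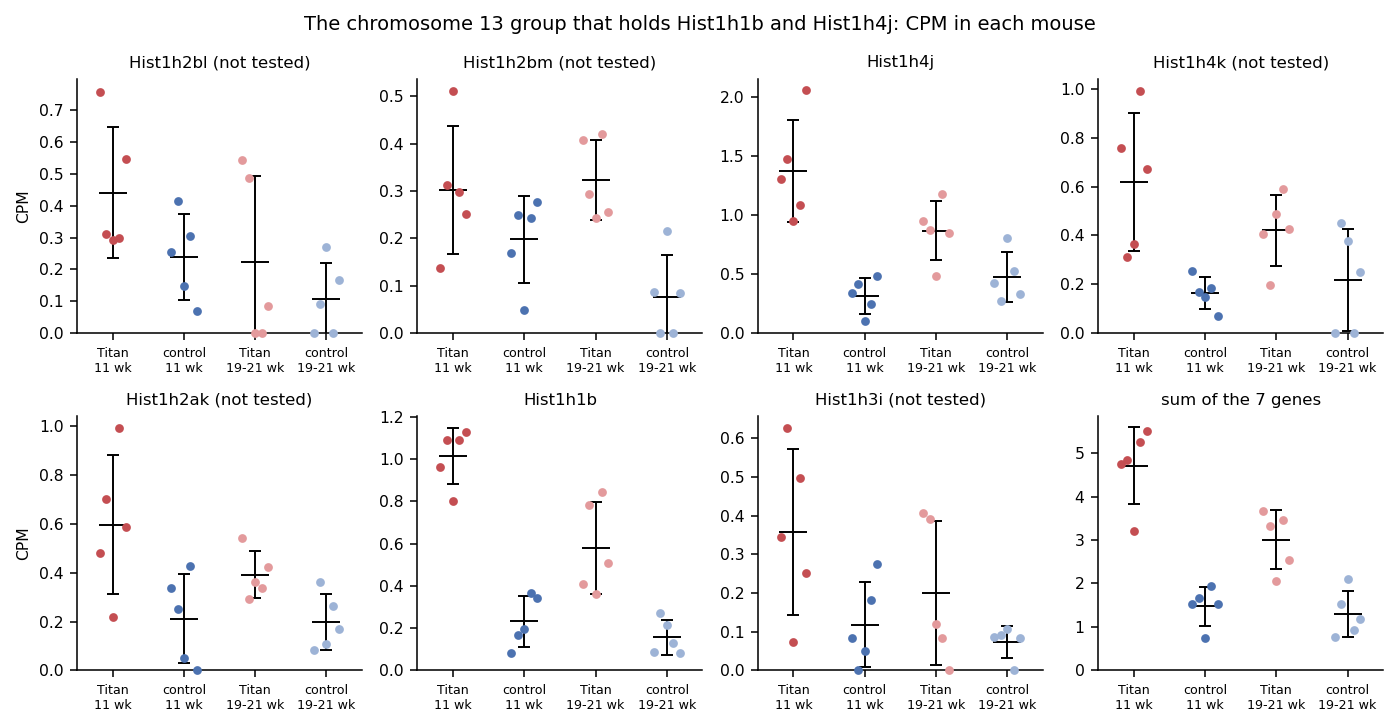
CPM of the 7 members between 21715763 and 21783370 on chromosome 13 and their sum in each mouse (points), with the group mean and SD (n = 5), axes from 0. The sum is 4.71 against 1.48 CPM at 11 weeks with no overlap. The mean of each of the 7 genes is higher in Titan than in control mice at both ages. The 7 passed a limit on summed reads, to which 11-week-old Titan mice gave the most of any group.

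The variant H1fx, which encodes a linker histone also called H1X, moved the other way. It had 1, 0, 3, 1 and 3 reads in the 11-week-old Titan mice and 8, 5, 12, 28 and 15 in the controls, with no overlap, and a ratio of rates of 0.118 (exact 95% interval 0.0489 to 0.245, counting error only). At 19–21 weeks it had 1, 2, 3, 5 and 8 reads in Titan and 13, 15, 7, 1 and 2 in control mice, which overlapped. H1fx did not pass the filter on low counts and has no value in the fit reported here. With 1 mouse left out the filter asks for fewer mice, and H1fx passed it in 16 fits. These were the fits that kept 11-week-old controls 4 and 5 and 19–21-week-old controls 1 and 2, where its CPM was highest. It was called at 11 weeks in all 16 (log2 fold change -3.33 to -2.71, edgeR adjusted p 0.00237 to 0.0108). Because it was tested only through controls where it was high, these calls are no separate support. Without the filter it had a log2 fold change of -2.97 ± 0.62 at 11 weeks (edgeR adjusted p = 0.00182, where 6.36% of 30233 genes passed). Its exons overlap another gene on the same strand, and reads that fall on both are in neither count.

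The fit without a filter also called Hist1h4k at 11 weeks (log2 fold change 1.87 ± 0.53, edgeR adjusted p = 0.0268) and Hist1h2ab, an H2A gene, at 19–21 weeks (1.90 ± 0.52, edgeR adjusted p = 0.0316, where 3.76% passed). Hist1h2ab had 31 reads in Titan and 10 in control mice at that age, and 30 against 37 at 11 weeks. Over the 17 untested members the ranges of the lines did not overlap for H1fx and Hist1h4k at 11 weeks and for Hist1h2ab and Hist1h2bm at 19–21 weeks. Among all 3068 genes outside the filter with at least 40 reads, the share without overlap was 2.84% higher and 1.86% lower at 11 weeks and 2.38% and 1.43% at 19–21 weeks. The 2 members next to the read limit, Hist1h2ag and Hist1h3c, had 16 against 6 and 20 against 11 reads at 11 weeks, with overlapping ranges.

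With age, few members moved. These comparisons use the same mice as the line comparisons. In Titan mice 1 of 40 members passed (2.5%, beside 1.25% of all genes tested and 0.492% higher), the H4 gene Hist2h4 (chr3:96261682-96263311, minus strand). It was at 4.41, 3.90, 5.83, 4.76 and 4.70 CPM at 11 weeks and at 6.38, 7.91, 7.05, 7.33 and 7.30 CPM at 19–21 weeks, with no overlap, and a log2 fold change of 0.61 ± 0.14 (edgeR adjusted p = 0.0353). In control mice it was at 5.2 to 6.16 and at 4.22 to 7.55 CPM, with a log2 change of -0.04 ± 0.14. The age effects of the lines differed by 0.65 ± 0.19 (edgeR adjusted p = 0.280). The call was lost in 4 of 8 alternative fits (edgeR adjusted p 0.0506 to 0.0818) and without Titan mouse 1, 2 or 5 of 11 weeks or any 1 of the 5 Titan mice of 19–21 weeks (log2 fold change 0.55 to 0.65, edgeR adjusted p 0.0562 to 0.140).

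H2afy was the other member whose Titan age groups did not overlap (2 of 40 members, 5.0%, beside 2.97% of all genes). It was lower at 19–21 weeks by -0.21 ± 0.06 on the log2 scale (edgeR adjusted p = 0.0963), and DESeq2 called it (log2 fold change -0.23, DESeq2 adjusted p = 0.0195), beside 3.06% of all genes. In control mice edgeR called 0 of 40 members between the ages (0.0868% of all genes), 1 had an unadjusted p under 0.05 (6.14% of all genes), and DESeq2 called 0 (0.362% of all genes). When the age effect in control mice was subtracted from that in Titan mice, edgeR called 0 of 40 members (0.00723% of all genes), 4 had an unadjusted p under 0.05 (8.95% of all genes), and DESeq2 called 0 (0.651% of all genes).

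The pseudogene Hist1h2al, which has 67.6% of its windows in other genes, varied widely within groups, from 0.827 to 7.77 CPM in 11-week-old controls and from 1.37 to 7.33 CPM in 19–21-week-old Titan mice. Its log2 fold change between lines was 0.52 ± 0.56 at 11 weeks and -1.09 ± 0.57 at 19–21 weeks (edgeR adjusted p = 0.610 and 0.253). H3f3aos, the transcript antisense to H3f3a, gave 0.78 ± 0.43 and 0.29 ± 0.42 (edgeR adjusted p = 0.254 and 0.726).

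Genes that act on histones were taken from lists. Of 24 genes of histone mRNA processing, 22 were found and 21 tested, and 1 passed at 11 weeks (beside 14.9% of all genes called). Eri1, an exonuclease that binds the stem-loop, was lower in Titan mice by -0.32 ± 0.08 on the log2 scale (edgeR adjusted p = 0.00644). At 19–21 weeks edgeR called 0 of the 21 (beside 9.13% of all genes), 1 had an unadjusted p under 0.05, and DESeq2 called 0. Among 28 histone chaperones, which carry histones to and from DNA, 1 was higher and 2 were lower at 11 weeks (beside 14.9% of all genes called), and 1 was higher and 1 lower at 19–21 weeks (beside 9.13%). Nap1l1, a chaperone of H2A and H2B, was higher at both ages (0.61 ± 0.14 and 0.59 ± 0.14, edgeR adjusted p = 0.00400 and 0.0105), and Npm1, nucleophosmin, lower at both (-0.70 ± 0.13 and -0.81 ± 0.13, edgeR adjusted p = 0.000863 and 0.000631). Rbbp4, a subunit of the chaperone CAF-1, was lower at 11 weeks (-0.40 ± 0.08, edgeR adjusted p = 0.00139).

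Of 30 genes of S phase and proliferation, 29 were tested. At 11 weeks 0 passed higher and 2 lower (beside 14.9% of all genes called). Among them E2f2, a factor of the E2F family, was lower (-1.06 ± 0.36, edgeR adjusted p = 0.0499), and the median log2 fold change over the list was -0.12. At 19–21 weeks 3 passed higher and 1 lower (beside 9.13%). The higher ones were Cdc6, which loads the replicative helicase, E2f8 and Ccna2, cyclin A2 (1.86 ± 0.38, 1.95 ± 0.43 and 1.74 ± 0.47, edgeR adjusted p = 0.00385, 0.00662 and 0.0235), with a median of 0.03 over the list. Between the ages edgeR called 0 of the 29 in either line (beside 1.25% of all genes in Titan and 0.0868% in control mice). DESeq2 called 0 too (beside 3.06% and 0.362%). The unadjusted edgeR p was under 0.05 for 8 in Titan and 7 in control mice, the latter beside 6.14% of all genes. Most of the 29 were lower in the older mice, with 7 above 0 in Titan and 4 in control mice. Their median log2 fold changes were -0.18 and -0.30, beside 0.02 and 0.0003 over all genes. The summed level of the 30 genes was 129 to 178 CPM in Titan and 117 to 193 in control mice at 11 weeks. A link between this list and the histone values was not tested.

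Hepatocyte markers summed to 90000 to 129000 CPM over all mice. Summed marker levels of Kupffer cells, stellate cells, cholangiocytes, lymphocytes, neutrophils and erythroid cells overlapped between the lines at both ages, and those of liver endothelial cells did so too (348 to 413 CPM in Titan and 403 to 465 in control mice at 11 weeks). Single markers did pass, beside 14.9% of all genes called at 11 weeks and 9.13% at 19–21 weeks. Of 10 hepatocyte markers, 3 were lower in Titan mice at 11 weeks (Apoa1, Cps1 and Trf, -0.54 ± 0.14, -0.72 ± 0.22 and -0.39 ± 0.13 on the log2 scale) and none passed at 19–21 weeks, where edgeR and DESeq2 called 0 and 0 had an unadjusted p under 0.05. Of 8 endothelial markers 2 passed as lower at each age (beside 14.9% and 9.13% of all genes called). Only 1 of the 8 was above 0 at each age, with medians of -0.23 and -0.18. Of 9 stellate cell markers Des was higher at 11 weeks (1.23 ± 0.33). The 2 tested lymphocyte markers went opposite ways, Cd3e with 3.94 ± 0.63 and 2.02 ± 0.59 at the 2 ages (edgeR adjusted p = 0.000224 and 0.0348) and Cd4 with -1.71 ± 0.42 and -1.11 ± 0.45 (edgeR adjusted p = 0.00749 and 0.134). Of 5 tested erythroid markers Klf1 was lower at both ages (-2.46 ± 0.27 and -2.74 ± 0.29), and the other 4 did not pass, with all 4 above 0 at 19–21 weeks. The 4 adipocyte markers, of which 1 was tested and higher at both ages, summed to 9.23 to 70.4 CPM in Titan and 0.422 to 2.5 in control mice at 11 weeks, and to 2.58 to 58.1 against 0.722 to 3.94 at 19–21 weeks. The 5 exocrine pancreas markers, of which 1 was tested and lower at both ages, summed to 5.78 to 11.3 against 21.8 to 40.2 CPM at 11 weeks, and to 11.2 to 21.9 against 29.7 to 50.4 CPM at 19–21 weeks. Of these 5 genes, 3 were at 0 in all 11-week-old controls and 4 in all mice of each other group. In bulk tissue fewer cells of a type and less RNA per cell cannot be told apart, and the part of other cells in the histone results was not tested. The share of uniquely mapped reads outside genes, 18.4% to 34.7% in 11-week-old Titan mice, 21.3% to 38.2% in their controls, 25.2% to 42% in 19–21-week-old Titan mice and 23% to 41.2% in theirs, overlapped between all groups. With it as a covariate Hist4h4, Hist2h2ac, H2afx, Hist1h1a and Hist2h4 no longer passed (edgeR adjusted p 0.0503, 0.0663, 0.0573, 0.0608 and 0.0506).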

How the data were processed

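Liver RNA of 20 male mice was sequenced after rRNA depletion with a strand-specific kit. The authors mapped reads with STAR 2.5.3a to GRCm38 and deposited raw read counts per gene, of which those on the transcript's strand were used here (96.83% to 97.55% of stranded reads). Y-linked genes were left out and histone genes kept. Counts were tested with edgeR 4.0.16 (R 4.3.3; TMM factors 0.892 to 1.09, filterByExpr, quasi-likelihood F test, 1 fit of 4 groups, Benjamini-Hochberg over 13823 genes, threshold 0.05). Mice of a group are separate animals. CPM uses TMM-scaled totals, and per-kb levels divide by the union of exons. The script was tested on simulated data.

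The genes and lists were chosen with earlier results of these data known. Genes named by rule are members past the threshold in any comparison, the 2 most counted of each class, tested variants, the 2 next to the read limit on either side, and up to 3 called genes per list and comparison with the smallest p. Other genes named, Ccna2, Hist1h2be, H1fx in the fit without a filter, the chromosome 13 stretch and single markers among them, were chosen after their values were seen. The sum of the chromosome 13 stretch without its called members was added after seeing the data. Alternatives were DESeq2 1.42.0, other scaling, strands, filters, groups, a replicate block, a covariate, and leaving out each mouse. Precision is limited by depth: intervals of read ratios cover counting error only. A gene of the S phase list is not reported here.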

Additional observations from a re-analysis of the deposited data

Results flagged for a closer look

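In 5 of 136 checks of a gene within a group of 5 mice, 1 mouse stood apart from the others by more than the Dixon limit of 0.71, and chance gives about 1 in 20. H3f3b was lowest in 19–21-week-old Titan mouse 3, at 53.9 CPM with the nearest mouse at 67.0. Hist1h3e was highest in 11-week-old control 3, at 5.05 CPM against 3.72. Hist1h1e was highest in 19–21-week-old Titan mouse 1, at 42.4 CPM against 35.2. Hist1h2ac was highest in 11-week-old control 5, at 1.31 CPM against 0.891, and H2afy in 19–21-week-old control 1, at 61.3 CPM against 55.7.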

How the results depend on the processing

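The 4 members called at 11 weeks became 3 with RLE size factors, 3 with counts of both strands, 4 with DESeq2, 1 with at least 10 counts in every mouse, 2 with the replicate block and 2 to 5 with 1 mouse left out. H1fx, untested in the main fit, is among those called in 16 of the fits with 1 mouse left out, where the filter asks for fewer mice. The 5 called at 19–21 weeks became 3 with at least 10 counts in every mouse, 1 with only the groups compared, 3 with the replicate block, 2 with the share of reads outside genes as covariate and 1 to 5 with 1 mouse left out. The 1 called between ages in Titan mice became 2 with DESeq2, 0 with no filter, 0 with only the groups compared, 0 with the replicate block, 0 with the covariate and 0 to 1 with 1 mouse left out. The filter of at least 10 counts leaves Hist1h1b and Hist1h4j untested. The fit of only the groups compared leaves Hist1h1b untested at 19–21 weeks. The causes of the other changes were not tested. Same-numbered mice correlated between -0.145 and 0.108, so pairing by number was not seen. Whether the numbers mark a shared processing batch was not tested. In control mice between ages, and for the Titan age effect minus that in control mice, 0 members were called in each alternative. No called log2 fold change reversed its sign. Of summed levels, 5 values moved by more than 1 SD: the H2A log2 ratio at 19–21 weeks was 0.58 without its most counted gene, the H2B ratio 0.040 at 11 weeks and -0.11 between ages in Titan mice without its own, the H2B ratio at 19–21 weeks -0.0069 with no scaling factor, and the variant ratio at 11 weeks 0.13 with none. The 17 untested members, with at most 134 reads in all, are limited by depth.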

Other observations

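Some members passed in single fits only. Hist1h4a, an H4 gene, had a log2 fold change of 1.01 at 11 weeks without 11-week-old control 3, and Hist1h1d, a linker H1 gene, of 0.72 without 11-week-old Titan mouse 3, both with an edgeR adjusted p under 0.05. Over all mice they had 0.68 ± 0.27 and 0.54 ± 0.24 (edgeR adjusted p = 0.101 and 0.142). Hist3h2a, an H2A gene on chromosome 11, had 1.49 at 19–21 weeks without 19–21-week-old control 3 and 1.05 ± 0.41 over all mice (edgeR adjusted p = 0.117).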
